A study of Arabidopsis thaliana with 12 samples.

Results

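The comparison described here set young shoots of the Arabidopsis thaliana mutant met1-3 against mature leaves of the wild type Col-0, and covered 6 of the 12 RNA-seq libraries of the series, 3 in each group. The met1 plants carried the met1-3 allele in the Columbia background and were sampled as whole young shoots at 2 weeks of age. The Col-0 plants were the wild type and were sampled at 5 weeks, when the study took the aerial part of the plant without the inflorescence. All plants were grown at 22 °C with 16 h of light and 8 h of dark, and neither group received a treatment. Age, tissue and genotype therefore changed together, and every difference below is that of their sum: the effect of the met1 mutation cannot be told apart from those of developmental stage and organ. No Col-0 shoots of 2 weeks were analysed here, and the 3 libraries labelled as met1-3 mature leaves were not used because their recovered reads were identical to those of the Col-0 mature leaves at all 22607 listed genes. The time of day of harvest and whether replicates came from separate plants are not given in the sources used here, so p-values measure the spread between these samples, which may be technical.

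MET1 is the maintenance DNA methyltransferase that copies CG methylation onto the new strand after DNA replication, and plants without it lose CG methylation over genes and transposons. Loss of this mark is known to switch on a small set of genes whose promoters are normally methylated, such as FWA and SDC, and to shut down the demethylase gene ROS1, which needs methylation of its own promoter to be transcribed. Young shoots hold expanding leaves and the shoot meristem, where cells divide and chloroplasts are being built. In flowering plants many leaves have stopped growing and are nearing senescence, the programmed recycling of their nitrogen and carbon. The aerial part taken from Col-0 may have held younger leaves and a shoot tip as well.

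Nuclear gene IDs that were not marked as transposon (TE) genes were compared where they were listed for both groups, which gave 20731 of the 24775 IDs listed for at least one group. Of these, 17027 were tested after genes with fewer than 10 scaled reads in more than 3 libraries or fewer than 15 reads in all were set aside, and 3704 were not tested. A scaled read is a read divided by the size factor of its library, which puts the 6 libraries on one depth. A library held 10105057 to 13336989 reads, of which 3821055 to 5161029 lay on nuclear non-TE genes. Plastid genes took 56.7% to 58.3% of the reads in met1 young shoots and 57.8% to 59.6% in Col-0 mature leaves (exact permutation test over the 6 libraries, two-sided p = 0.3), and mitochondrial genes took 2.42% to 2.79% and 2.51% to 2.72% (exact permutation test, p = 0.8). TE genes took 1.15% to 1.18% of the reads in met1 young shoots and 0.0682% to 0.0729% in Col-0 mature leaves, with no overlap, and the exact permutation p of 0.1 was the smallest that 3 libraries against 3 allow. Libraries of one group correlated at r = 0.965 to 0.980 across genes, and libraries of different groups at 0.731 to 0.765, where genes are not independent replicates. Replicate 3 of met1 young shoots stood farther from its group, with a chi-square of 20.8 and 24.7 per degree of freedom against replicates 1 and 2, which differed from each other by 3.94. Col-0 pairs differed by 7.72 to 14.5.

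A gene was called differentially expressed (DEG) when its adjusted p was below 0.01 and its absolute log2 fold change was above 1. By this rule 2957 genes (17.4% of those tested) were higher and 2392 (14.0%) were lower in met1 young shoots, and the 3 libraries of one group lay entirely above or below those of the other at 66.9% of all genes tested. These percentages are the background for every list below, whose counts are over the members that passed the filter. A member that passed because it was high in a single group had to differ, so these counts are descriptions. The median log2 fold change over all genes tested was -0.01. Scaling by total reads alone moved this median by -0.33 and gave 2123 higher and 3802 lower genes, so that the share of calls that were higher fell from 55.3% to 35.8%, and directions below are relative to the typical nuclear gene. Of the 5349 DEGs, 1986 lay beyond a log2 fold change of 2 in either direction. Among the larger ones, 547 genes were higher by more than 3 on the log2 scale and 266 were lower by more than 3. Protein-coding genes made up 2914 of the higher and 2310 of the lower DEGs, while long noncoding RNAs were called higher at 7 and lower at 30 of 110 tested. In bulk tissue, fewer cells of a type and less RNA per cell cannot be told apart, and this holds for all results below.

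The MET1 gene itself (AT5G49160, TAIR10.1 chr5:19932114-19938470) was counted in all 6 libraries. Col-0 mature leaves held 40.5, 51.9 and 54.8 scaled reads of MET1 in replicates 1 to 3, and met1 young shoots held 335, 372 and 411. The young mutant shoots were therefore far above the wild-type leaves, with a log2 fold change of 2.91 ± 0.16 (adjusted p = 7.9e-08) from limma, where the error is the standard error (SE). Reads were counted over the whole gene, so this value does not check whether the met1-3 allele makes an intact transcript. FWA, SDC and ROS1 are given beside it because they are known to change when CG methylation is lost. Without Col-0 shoots of 2 weeks, their levels cannot check the genotype label either. FWA (AT4G25530, chr4:13038360-13042464), a homeobox gene that delays flowering when it loses methylation, had 0, 5.03 and 2.35 scaled reads in Col-0 and 2282, 2343 and 2685 in met1. SDC (AT2G17690, chr2:7682162-7684083), an F-box gene, had 3.03, 1.68 and 1.57 in Col-0 and 867, 953 and 661 in met1. The highest Col-0 value of either gene was 5.03, and the log2 fold changes were 9.80 ± 0.48 (adjusted p = 4.3e-08) for FWA and 8.08 ± 0.25 (adjusted p = 3.1e-09) for SDC. ROS1 (AT2G36490, chr2:15307907-15314807), which encodes a DNA glycosylase that removes 5-methylcytosine, went the other way. Its values were 324, 392 and 414 scaled reads in Col-0 and 0, 1.43 and 12.9 in met1, a log2 fold change of -6.86 ± 0.71 (adjusted p = 8e-06), and the highest met1 value was that of replicate 3. FWA and SDC each overlap a gene on the opposite strand, MSH3 and AT2G17695, and the strand setting of the counting is not given in the sources used here, so reads of the partners cannot be separated.

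The sequence before FWA and SDC is shown because both genes are known to be silenced through methylated direct repeats near their starts. The 300 bases upstream of each annotated start follow, from the TAIR10.1 reference and 5′ to 3′ along the gene (SDC at chr2:7681862-7682161, plus strand, FWA at chr4:13038060-13038359, plus strand), with every CG, the site that MET1 keeps methylated, in capitals.
SDC: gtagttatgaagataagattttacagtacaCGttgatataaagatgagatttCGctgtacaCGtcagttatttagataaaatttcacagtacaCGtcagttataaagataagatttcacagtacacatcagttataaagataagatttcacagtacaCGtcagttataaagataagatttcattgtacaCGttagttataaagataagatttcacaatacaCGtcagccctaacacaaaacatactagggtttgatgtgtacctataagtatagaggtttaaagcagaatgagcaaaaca
FWA: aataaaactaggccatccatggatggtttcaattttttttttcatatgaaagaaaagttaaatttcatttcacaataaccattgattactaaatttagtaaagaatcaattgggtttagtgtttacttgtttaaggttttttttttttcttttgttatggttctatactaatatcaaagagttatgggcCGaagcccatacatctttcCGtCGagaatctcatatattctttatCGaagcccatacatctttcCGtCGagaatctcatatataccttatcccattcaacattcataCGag
The SDC window holds 7 CG sites and the FWA window 7, where the median for 300-base windows before annotated nuclear genes was 6. Before SDC, one 20-base word (agttataaagataagatttc) occurs 4 times at a spacing of 32 bases, and before FWA another (cgaagcccatacatctttcc) occurs 2 times, 45 bases apart. At least 2 copies of some 20-base word were found in the 500 bases before 6.70% of annotated nuclear genes and at least 4 copies before 1.54%. The same share with at least 2 copies was 5.08% among the higher DEGs and 5.78% among the lower ones. Annotated starts can lie inside transcribed sequence, so these windows need not be the promoters in use.

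Of 28 tested genes that write, read or erase DNA methylation, 7 were higher, 2 were lower and 19 were not called, with a median log2 fold change of 0.26 that turned to -0.08 under total-read scaling. Beside MET1, the higher genes with the largest changes act in the maintenance of CG and CHG methylation. DDM1, the nucleosome remodeller that gives methyltransferases access to heterochromatin, had 3.03, 6.70 and 8.62 scaled reads in Col-0 and 82.5, 106 and 125 in met1 (log2 fold change 3.96 ± 0.35, adjusted p = 2.6e-06). VIM1, a reader of hemimethylated CG sites that recruits MET1, went from 13.2, 10.1 and 8.62 to 166, 162 and 199 (log2 fold change 3.94 ± 0.23, adjusted p = 1.3e-07), and its close relative VIM3 from 4.05, 1.68 and 0.784 to 32.1, 40.1 and 56.98 (log2 fold change 3.89 ± 0.47, adjusted p = 2.7e-05). VIM genes are similar in sequence, so part of their reads may be shared. CMT3, the CHG methyltransferase, had 46.5, 45.2 and 40.7 in Col-0 and 152, 197 and 221 in met1 (log2 fold change 2.07 ± 0.18, adjusted p = 2e-06). The 3 met1 libraries lay above all Col-0 libraries at each of these genes.

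Genes of the RNA-directed pathway, in which small RNAs guide the methyltransferase DRM2, were mostly not called. AGO4, the Argonaute that carries these small RNAs, was higher with 133, 141 and 118 scaled reads in Col-0 and 254, 303 and 329.9 in met1 (log2 fold change 1.17 ± 0.14, adjusted p = 2.2e-05), a call that was lost under total-read scaling (log2 fold change below 1). MORC6, an ATPase needed for silencing, had 41.5, 41.9 and 45.4 in Col-0 and 96.2, 91.5 and 77.2 in met1, and its call at a log2 fold change of 1.02 was lost under 5 of the alternatives. CLSY1, which recruits RNA polymerase IV, had a log2 fold change of -0.80, and CMT2, the CHH methyltransferase of heterochromatin, had 0.85, both below the fold change threshold. DRM2 (-0.18), NRPD1 (-0.40), NRPE1 (-0.33), RDR2 (0.41), DCL3 (0.28), SHH1 (-0.48), AGO6 (1.23), SUVH4 (0.08), SUVH5 (0.93), SUVH6 (-0.39), MOM1 (0.07), MORC1 (0.19), IDM1 (0.24) and MBD7 (1.05) were not called. DRM1 was listed for Col-0 alone, with at most 0.838 scaled reads, and VIM2 was too low to test.

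Beside ROS1, IBM1 was the other gene of the list that was lower. IBM1 encodes the histone H3 lysine 9 demethylase that protects gene bodies from CHG methylation, and its full-length transcript is known to depend on methylation of a long intron. It had 318, 296 and 293 scaled reads in Col-0 and 137, 144 and 139.7 in met1, with no overlap and a log2 fold change of -1.10 ± 0.11 (adjusted p = 8e-06). The other demethylase genes were not called, at 0.17 for DME, 0.44 for DML2 and 0.16 for DML3. Of 13 genes listed as known to be silenced by methylation, 4 were listed for both groups, and 3 were tested: beside FWA and SDC the third, QQS, was at 0.55 and was not called.

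**Figure D1:**
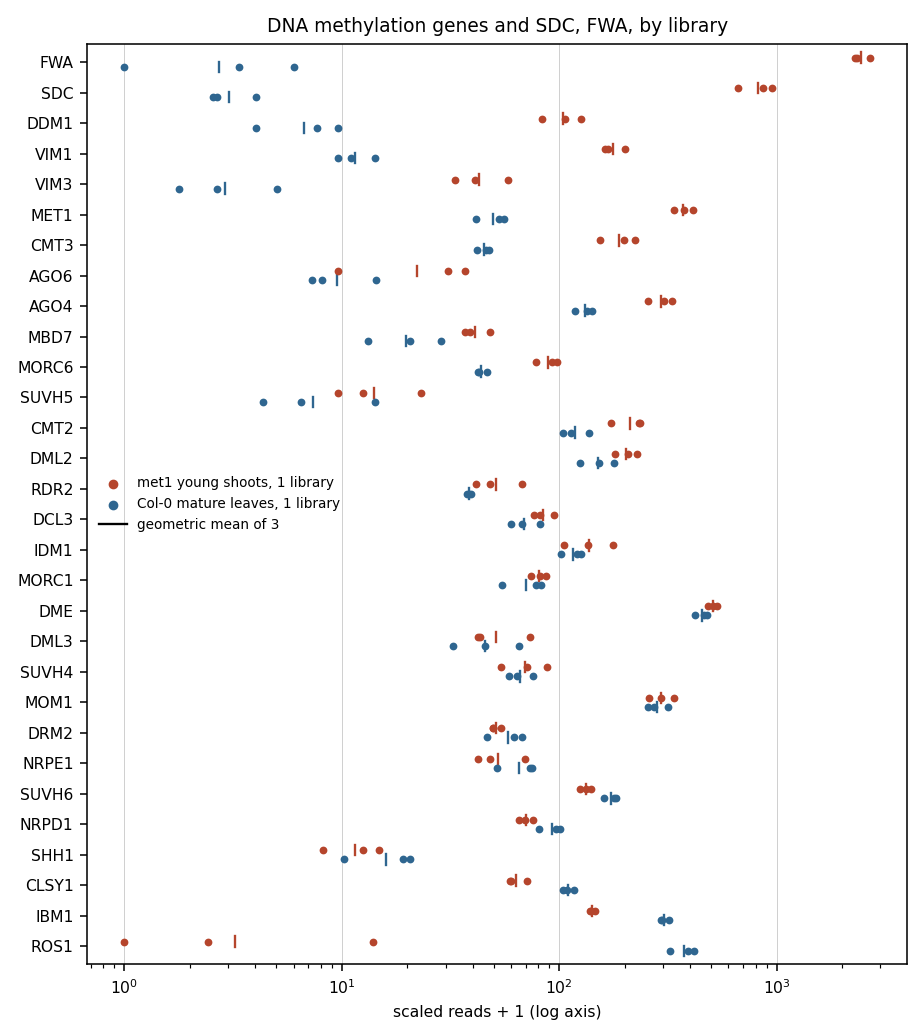
Scaled reads plus 1 (logarithmic axis) of the 28 tested DNA methylation genes and of SDC and FWA in the 6 libraries, 1 point a library and 1 colour a group. SDC and FWA stand highest in met1 young shoots and ROS1 lowest, while DDM1, VIM1, VIM3, MET1 and CMT3 also separate the groups and most RNA-directed methylation genes lie close together.

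The 8 genes with the largest log2 fold changes over the whole table were FWA, AT2G11778, AT1G59930, SDC, AT3G01345, AT1G59920, AT5G03090 and AT2G33175, and all were at or near 0 in Col-0 mature leaves. AT2G11778 (chr2:4728072-4728239), annotated as an uncharacterized protein, had 5.06, 3.35 and 6.27 scaled reads in Col-0 and 4489, 4562 and 3124 in met1 (log2 fold change 9.44 ± 0.21, adjusted p = 4.5e-10). AT1G59930 (chr1:22060924-22061516), annotated as a MADS-box family protein, had 2.02, 8.38 and 5.48 in Col-0 and 3302, 3276 and 3378 in met1 (log2 fold change 9.19 ± 0.31, adjusted p = 5.4e-09). Its neighbour AT1G59920 (chr1:22059424-22059842), of the same family, had 1 Col-0 read in all against 324, 259 and 251 scaled reads in met1, a ratio of 958 (95% interval 171 to 37902), and reads of the 2 similar neighbours may be shared. AT5G03090 (chr5:725281-725962) likewise had 1 Col-0 read in all and 226, 280.4 and 269 scaled reads in met1, a ratio of 892 (95% interval 159.6 to 35282). No Col-0 read was counted at AT3G01345 (chr3:129138-130749) or AT2G33175 (chr2:14062699-14063623), both uncharacterized. AT3G01345 had 277, 289 and 166 scaled reads in met1 and was at least 271-fold higher against a floor of 3 reads over the group, and AT2G33175 had 199, 229 and 154 and was at least 218-fold higher. Across the table, 33 higher DEGs had no Col-0 read and 8 lower DEGs had no met1 read.

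A further 885 nuclear genes were listed for met1 young shoots alone, most of them with very few reads (median 2 over the 3 libraries). At least 10 reads in every met1 library were counted at 46 of them, and at least 100 at 5. In the other direction, 1124 genes were listed for Col-0 alone, of which 6 had at least 10 reads in each library. The gene with the most reads in its lowest met1 library was AT5G45570 (chr5:18471498-18475574), annotated in the Ulp1 protease family, with 313, 342 and 239.9 scaled reads, and AT5G28810 (chr5:10823356-10826646) of the same family had 215, 252 and 214. The MADS-box gene AT5G35120 (chr5:13386852-13387175) had 218, 253 and 224, AT1G20400 (chr1:7072192-7076619), annotated with a domain of unknown function, had 179, 183 and 232, and the uncharacterized AT4G08593 (chr4:5469345-5470466) had 160.4, 146 and 175. These 5 genes are not marked as TE genes in the deposited table.

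The 8 lowest log2 fold changes belonged to NUDT8, ROS1, JAZ7, AT5G28237, TPS04, PAP2, GOLS2 and MAPKKK21. NUDT8, a nudix hydrolase, had 1660.1, 609 and 348 scaled reads in Col-0 and 6.87, 2.86 and 5.51 in met1 (log2 fold change -6.92 ± 0.47, adjusted p = 3.4e-07). TPS04, a terpene synthase that makes the volatile precursor geranyllinalool, had 419, 174 and 148 in Col-0 and 2.29, 1.43 and 0.919 in met1 (log2 fold change -6.48 ± 0.40, adjusted p = 2e-07). The kinase gene MAPKKK21 had 205, 108 and 71.3 in Col-0 and 2.29, 0 and 1.84 in met1 (log2 fold change -5.80 ± 0.52, adjusted p = 2.8e-06). All of these were highest in Col-0 replicate 1 and near 0 in each met1 library. AT5G28237, annotated as a pyridoxal-phosphate-dependent enzyme, had 271, 87.1 and 78.4 scaled reads in Col-0 and 1 read in all in met1, a Col-0 to met1 ratio of 363 (95% interval 64.8 to 14368). JAZ7, PAP2 and GOLS2 are described with their pathways.

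**Figure D2:**
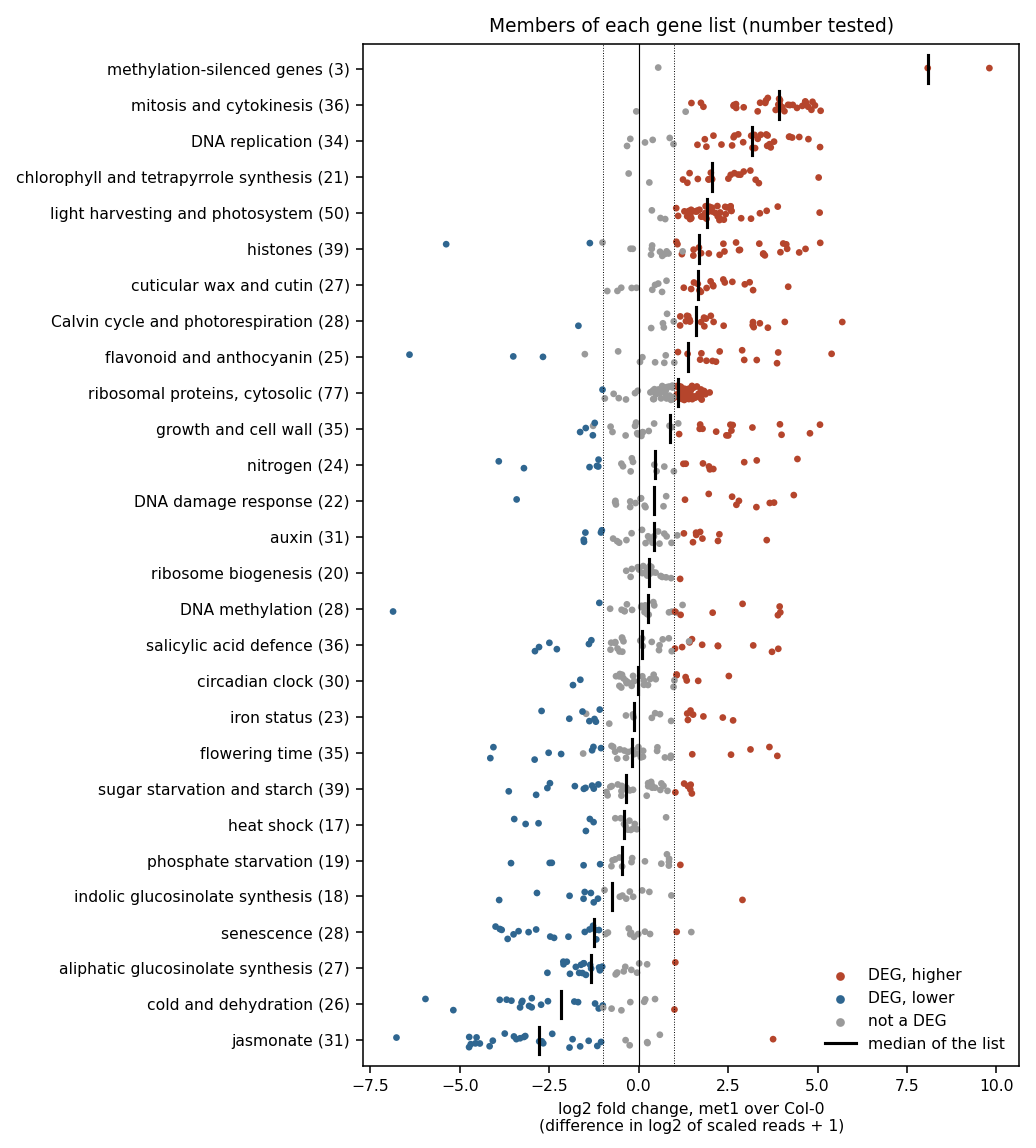
Log2 fold change (met1 young shoots minus Col-0 mature leaves) of every tested member of each gene list, 1 point a gene and 1 bar for the list's median. Mitosis (median 3.93), DNA replication (3.16), chlorophyll synthesis (2.05) and light harvesting (1.92) lie highest among the lists of 20 or more tested genes, and jasmonate (-2.78) and cold and dehydration (-2.16) lie lowest.

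Genes of the photosynthetic apparatus were higher in met1 young shoots almost throughout. Of 50 genes of light harvesting and the photosystems, all tested, 47 were higher and none was lower (background 17.4% and 14.0%), with a median of 1.92 and a range of 0.37 to 5.06. They took 5.37% to 6.10% of nuclear non-TE reads in met1 young shoots and 1.72% to 2.11% in Col-0 mature leaves. LHCB1.3, which encodes a major chlorophyll-binding antenna protein of photosystem II, had 5086, 3489 and 2763 scaled reads in Col-0 and 40031, 38292 and 36835 in met1 (log2 fold change 3.39 ± 0.20, adjusted p = 1.4e-07). LHCB1.1 had 2159.9, 1521 and 1274 in Col-0 and 19459, 18417 and 19965 in met1 (log2 fold change 3.58 ± 0.17, adjusted p = 3.8e-08), and LHCB1.4 had 100.2, 39.4 and 32.1 in Col-0 and 1771, 1748 and 1614 in met1 (log2 fold change 5.06 ± 0.31, adjusted p = 2e-07). The LHCB1 genes are near-identical copies whose reads may have been split, and LHCB1.3 also overlaps NRPA2 on the opposite strand. LHCA6, a photosystem I antenna gene, rose from 37.4, 34.3 and 25.1 to 487, 539 and 435 (log2 fold change 3.89 ± 0.17, adjusted p = 2.4e-08). The 3 members that were not called, chosen after their values were seen, were PSBR at 0.61, LHCB1.5 at 0.74 and LHCB7 at 0.37.

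The carbon-fixing Calvin cycle and photorespiration showed the same direction, with 22 of 28 tested genes higher, 1 lower and a median of 1.59. Their share of nuclear reads was 5.25% to 5.47% in met1 and 2.12% to 2.17% in Col-0. The largest change was that of CA1, a chloroplast carbonic anhydrase that interconverts CO2 and bicarbonate, with 497, 193 and 167 scaled reads in Col-0 and 14299, 14825 and 10511 in met1 (log2 fold change 5.69 ± 0.32, adjusted p = 1.1e-07). Its cytosolic relative CA2 had 681, 533 and 529.7 in Col-0 and 10291, 9960.01 and 9197 in met1 (log2 fold change 4.08 ± 0.12, adjusted p = 2.6e-09). The small-subunit genes of Rubisco, the enzyme that fixes CO2, were also higher. RBCS3B had 2373, 1973 and 1754 in Col-0 and 21572, 22236 and 19671 in met1 (log2 fold change 3.39 ± 0.14, adjusted p = 1.5e-08), and RBCS2B had 1108, 652 and 618 in Col-0 and 10143, 9499 and 8499.5 in met1 (log2 fold change 3.61 ± 0.19, adjusted p = 6.9e-08), again with reads that may be shared between copies. HAOX1, a glycolate oxidase family member chosen after its values were seen, was the lower one, with 57.7, 40.2 and 47.8 in Col-0 and 6.87, 17.2 and 23.9 in met1 (log2 fold change -1.68 ± 0.39, adjusted p = 0.0032).

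Chlorophyll synthesis genes were higher at 19 of 21 tested members and lower at none, with a median of 2.05. PORB, the light-dependent protochlorophyllide oxidoreductase, had 16.2, 20.1 and 27.4 scaled reads in Col-0 and 643, 691 and 808 in met1 (log2 fold change 5.03 ± 0.19, adjusted p = 1.1e-08). The magnesium chelatase genes CHLI1 and CHLI2 encode a subunit that puts magnesium into the ring. CHLI1 had 512, 479.9 and 441 in Col-0 and 4179, 4228 and 4066 in met1 (log2 fold change 3.12 ± 0.10, adjusted p = 3.1e-09), and CHLI2 had 51.6, 30.2 and 44.7 in Col-0 and 407, 422 and 469 in met1 (log2 fold change 3.36 ± 0.19, adjusted p = 9.9e-08). HEME1, a uroporphyrinogen decarboxylase earlier in the pathway, had 78.9, 75.4 and 72.1 in Col-0 and 652, 808 and 756 in met1 (log2 fold change 3.27 ± 0.12, adjusted p = 1e-08). All 3 met1 libraries were above every Col-0 library at each of these genes, but genes were named only where the groups did not overlap. PORB, CHLI1 and CHLI2 overlap a gene on the opposite strand. HEMA2, one of the members without a call, was at -0.28 and was chosen after its values were seen. The plastid genome's own share of reads, given above, overlapped between the groups.

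**Figure D3:**
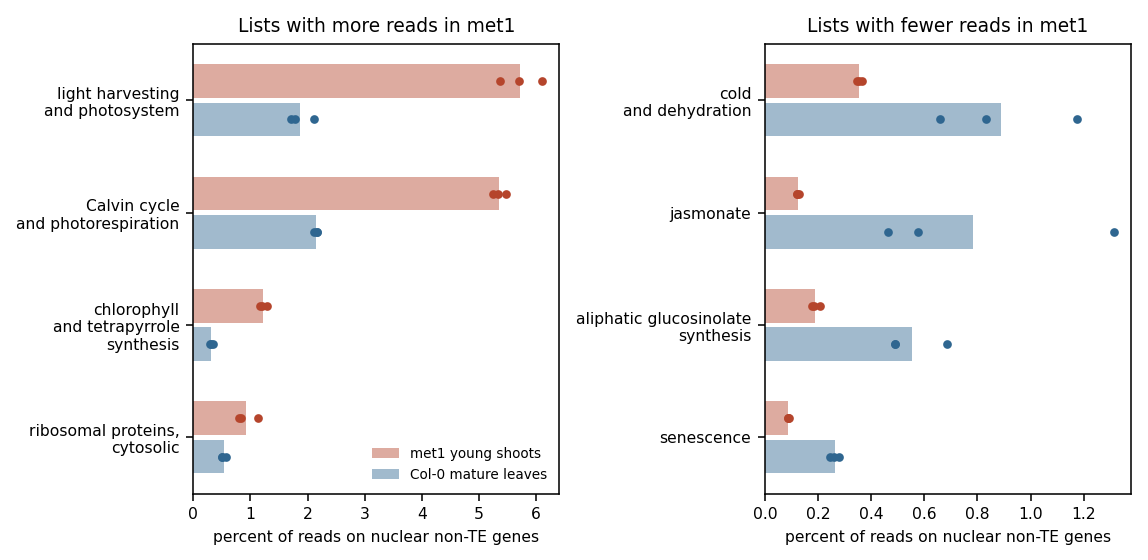
Percent of nuclear non-TE reads that fell on each of 8 gene lists in the 6 libraries (points) with the group mean (bars from 0), met1 young shoots beside Col-0 mature leaves. Light harvesting, Calvin cycle, chlorophyll and ribosomal protein genes took more of the reads in met1 young shoots. Cold, jasmonate, aliphatic glucosinolate and senescence genes took more in Col-0. Among the Col-0 libraries, replicate 1 was highest for cold, jasmonate and aliphatic glucosinolate genes.

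Cell division genes had more reads in met1 young shoots than in Col-0 mature leaves. DNA replication genes summed to 3571 to 4285 scaled reads in met1 and 814 to 902 in Col-0. Of 34 tested DNA replication genes, from 36 matched, 28 were higher and none was lower, with a median of 3.16, and of 36 tested genes of mitosis and cytokinesis, from 37 matched, 34 were higher and none was lower, with a median of 3.93. Mitosis genes took 0.0552% to 0.0930% of nuclear reads in met1 and 0.0092% to 0.0103% in Col-0, and the highest share was that of met1 replicate 3. ORC1B, a subunit of the complex that marks replication origins, had 3.03, 0.838 and 0 scaled reads in Col-0 and 55.00, 51.5 and 94.7 in met1 (log2 fold change 5.07 ± 0.52, adjusted p = 8.5e-06). PCNA1, the sliding clamp of DNA polymerases, had 5.06, 3.35 and 2.35 in Col-0 and 95.1, 147 and 119 in met1 (log2 fold change 4.75 ± 0.32, adjusted p = 3.6e-07), and MCM7, a subunit of the replicative helicase, had 12.1, 8.38 and 8.62 in Col-0 and 215, 215 and 287 in met1 (log2 fold change 4.49 ± 0.23, adjusted p = 5.1e-08). CDT1B, which loads that helicase, had 3.03, 0.838 and 0.784 in Col-0 and 44.7, 44.3 and 46.9 in met1. The lowest met1 value of these 4 genes was 44.3 and the highest Col-0 value was 12.1. POLD4 (-0.32) and RNR2A (-0.23), chosen after their values were seen, were among the replication genes that were not called.

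Genes of mitosis itself had the same pattern. CYCB1;1, the B-type cyclin that marks cells entering mitosis, had 1.01, 2.51 and 0.784 scaled reads in Col-0 and 51.6, 61.5 and 92.8 in met1 (log2 fold change 4.86 ± 0.41, adjusted p = 1.9e-06). CYCB2;2 had 2.02, 1.68 and 0 in Col-0 and 43.5, 52.9 and 76.3 in met1 (log2 fold change 4.83 ± 0.49, adjusted p = 7.8e-06). HIK, the kinesin HINKEL that builds the new cell plate, had 4.05, 5.03 and 6.27 in Col-0 and 150.1, 180.2 and 315 in met1 (log2 fold change 5.09 ± 0.31, adjusted p = 1.6e-07), and TPX2, a spindle assembly factor, had 2.02, 4.19 and 3.13 in Col-0 and 103, 104 and 165 in met1 (log2 fold change 4.93 ± 0.33, adjusted p = 3.3e-07). The highest met1 value of all 4 genes was that of replicate 3, the library that stood apart, and 34 genes of the list were higher also without it. TES, another kinesin of the cell plate chosen after its values were seen, was at -0.07 and was not called.

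Histone genes followed in part, with 25 of 39 tested members higher, 2 lower and a median of 1.68. HTA6, which encodes the heterochromatic variant H2A.W, had 10.1, 9.21 and 5.48 scaled reads in Col-0 and 218, 190.2 and 286 in met1 (log2 fold change 4.66 ± 0.27, adjusted p = 1.1e-07), HTA11, which encodes the variant H2A.Z, had 2.02, 3.35 and 0 in Col-0 and 75.6, 60.1 and 107 in met1 (log2 fold change 5.07 ± 0.52, adjusted p = 8.3e-06), and AT5G10400, a histone family gene, had 8.09, 3.35 and 5.48 in Col-0 and 142, 116 and 172 in met1. The opposite change was found at HIS1-3, the stress-inducible linker histone H1. It had 116, 168 and 224 in Col-0 and 8.02, 1.43 and 1.84 in met1 (log2 fold change -5.38 ± 0.47, adjusted p = 2.2e-06). Histone genes are a multigene family, so reads may be shared between copies.

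The promoters of replication genes are shown because E2F transcription factors, which drive S-phase genes, bind a short motif there. An E2F site (TTTCCCGC or TTTGGCGC, on either strand) lay within 250 bases upstream of the annotated start at 10 of 36 DNA replication genes (27.8%), against 0.993% of all tested genes and 1.47% of all annotated nuclear genes. The 250 bases before MCM2 (chr1:16969964-16970213, plus strand) and MCM3 (chr5:18773707-18773956, minus strand), helicase subunits chosen after their values were seen, are given with the motif in capitals, and MCM3 carries it on the opposite strand.
MCM2: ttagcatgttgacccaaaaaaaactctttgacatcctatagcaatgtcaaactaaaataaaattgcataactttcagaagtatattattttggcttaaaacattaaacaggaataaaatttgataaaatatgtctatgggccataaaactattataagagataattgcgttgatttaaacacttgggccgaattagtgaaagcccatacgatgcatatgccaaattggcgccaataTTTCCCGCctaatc
MCM3: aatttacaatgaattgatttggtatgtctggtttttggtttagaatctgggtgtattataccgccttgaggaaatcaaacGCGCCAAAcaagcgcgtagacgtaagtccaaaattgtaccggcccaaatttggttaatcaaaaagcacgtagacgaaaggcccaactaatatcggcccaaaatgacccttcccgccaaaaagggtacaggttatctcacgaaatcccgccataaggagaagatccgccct
MCM2 had 17.2, 14.2 and 10.2 scaled reads in Col-0 and 278, 250.3 and 288 in met1, and MCM3 had 16.2, 17.6 and 10.97 in Col-0 and 198, 186 and 221 in met1, with log2 fold changes of 4.22 and 3.69. Of the 28 replication genes called, 9 held the motif. A match is a description of the sequence and says nothing of whether the factor was bound.

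Genes of the DNA damage response were mixed, with 9 of 22 tested members higher, 1 lower and a median of 0.44 that became -0.11 under total-read scaling. The higher ones with the largest changes were BRCA1, which acts in repair by homologous recombination, TSO2, a ribonucleotide reductase subunit that S-phase cells also need, and PARP2, a poly(ADP-ribose) polymerase. BRCA1 had 2.02, 1.68 and 7.05 scaled reads in Col-0 and 60.7, 87.3 and 97.4 in met1 (log2 fold change 4.34 ± 0.44, adjusted p = 6.9e-06), TSO2 had 20.2, 22.6 and 21.2 in Col-0 and 275, 286 and 366 in met1 (log2 fold change 3.78 ± 0.17, adjusted p = 2.8e-08), and PARP2 had 8.09, 6.70 and 1.57 in Col-0 and 76.8, 74.4 and 61.6 in met1 (log2 fold change 3.66 ± 0.45, adjusted p = 3e-05). SMR5, an inhibitor of cyclin-dependent kinases that is switched on by oxidative stress, was lower. It had 68.8, 73.7 and 60.3 in Col-0 and 8.02, 4.29 and 4.60 in met1 (log2 fold change -3.41 ± 0.32, adjusted p = 3.6e-06), and it overlaps another gene on the opposite strand.

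Of 90 genes picked as cytosolic ribosomal proteins by the wording of their annotated products, 77 were tested. Of these, 43 were higher and 1 was lower, with a median of 1.11 and no value above 1.99. Such wording need not capture the whole family and can take in proteins that assemble ribosomes. The listed genes took 0.809% to 1.14% of nuclear reads in met1, with the highest value in replicate 3, and 0.506% to 0.574% in Col-0. Many changes lay close to the threshold, and the count of higher members was 39 without met1 replicate 3 and 26, with 3 lower, under total-read scaling. AT2G47610, which encodes a protein of the L7Ae family, had 674, 508 and 457 scaled reads in Col-0 and 1874, 1804 and 2256 in met1 (log2 fold change 1.87 ± 0.15, adjusted p = 1e-06). AT3G55750 (L35Ae) had 277, 244 and 208 in Col-0 and 799, 789.6 and 1006 in met1, its paralogue AT1G07070 had 11.1, 10.9 and 14.1 in Col-0 and 34.4, 60.1 and 61.6 in met1, and AT4G26230 (L31e) had 227, 158 and 165 in Col-0 and 591, 657 and 627 in met1. All 4 genes were higher in every met1 library, as the rule for naming them required groups that did not overlap. Of a separate list of genes that assemble ribosomes, 1 of 20 tested was called, with a median of 0.29 that turned to -0.04 under total-read scaling. That gene was FIB2, a fibrillarin that methylates ribosomal RNA, with 102, 92.97 and 85.4 in Col-0 and 188, 172 and 286 in met1 (log2 fold change 1.16 ± 0.19, adjusted p = 0.00026), and its call was lost without met1 replicate 3 and under total-read scaling.

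Upstream of ribosomal protein genes, the telo box (AAACCCTA) was found at 27.8% of 90 members and the site II element (TGGGCC) at 51.1%, where all tested genes had 3.66% and 17.9%. Of the 44 members that were called, 8 held the telo box, against 25 of all 90. Both elements are known from genes of growing tissue. The window before AT4G00810 (chr4:347294-347543, minus strand), an acidic ribosomal protein gene chosen after its values were seen, is shown with its telo box in capitals.
AT4G00810: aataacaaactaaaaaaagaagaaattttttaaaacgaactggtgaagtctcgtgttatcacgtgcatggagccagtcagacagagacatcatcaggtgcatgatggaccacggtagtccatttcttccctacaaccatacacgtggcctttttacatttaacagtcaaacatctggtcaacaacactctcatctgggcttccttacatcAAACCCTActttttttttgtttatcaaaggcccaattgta
AT4G00810 had 149.7, 116 and 98.7 scaled reads in Col-0 and 392, 376 and 415 in met1 (log2 fold change 1.71 ± 0.15, adjusted p = 2.6e-06). Ribosome biogenesis genes, which were mostly not called, held these elements nearly as often, with the telo box at 4 and site II at 10 of 20.

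Expansins, the proteins that loosen cell walls during growth, gave the largest changes among 35 tested genes of growth and the cell wall, of which 15 were higher and 4 lower with a median of 0.86. Without met1 replicate 3 the counts were 12 and 4. EXPA1 had 151, 126 and 127 scaled reads in Col-0 and 2301, 2169.9 and 2001 in met1 (log2 fold change 3.99 ± 0.11, adjusted p = 1.7e-09), and EXPA10 had 32.4, 18.4 and 21.9 in Col-0 and 699, 612 and 729.7 in met1 (log2 fold change 4.79 ± 0.19, adjusted p = 1.5e-08). EXPA11 had 4.05, 2.51 and 6.27 in Col-0 and 184, 157 and 165 in met1 (log2 fold change 5.07 ± 0.30, adjusted p = 1.5e-07), and EXPA3 had 16.2, 10.1 and 5.48 in Col-0 and 150.1, 153 and 194 in met1 (log2 fold change 3.95 ± 0.33, adjusted p = 1.5e-06). Expansin levels in the 3 met1 libraries were close to one another. The cellulose synthases of the secondary wall, which are expressed in maturing xylem, were lower instead. CESA4, CESA7 and CESA8, chosen after their values were seen, had log2 fold changes of -1.28, -1.48 and -1.23, and Col-0 replicate 3 was the highest library at each. Without that library the calls of CESA4 and CESA8 were lost, and that of CESA8 was also lost without met1 replicate 1 or 2. The whole list had 4 lower members, so most of its other genes of the secondary wall were not called lower.

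Auxin genes showed no common direction, with 9 of 31 tested higher, 5 lower and a median of 0.43. Under total-read scaling 5 were higher and 6 lower, with a median of 0.0646, and size factors over all listed IDs gave 6 higher and 5 lower. YUC2 and YUC4 encode flavin monooxygenases of auxin synthesis. YUC2 had 6.07, 10.1 and 7.84 scaled reads in Col-0 and 38.96, 22.9 and 28.5 in met1 (log2 fold change 1.78 ± 0.35, adjusted p = 0.001), and YUC4 had 2 Col-0 reads in all against 19.5, 10.01 and 19.3 scaled reads in met1, a ratio of 29.3 (95% interval 7.64 to 249). GH3.6, which conjugates auxin to amino acids, had 18.2, 40.2 and 41.5 in Col-0 and 131, 147 and 187 in met1 (log2 fold change 2.26 ± 0.29, adjusted p = 4.8e-05). SAUR23, an early auxin response gene, was called at 2.22 but not without met1 replicate 1.

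Genes that act in or on the stomatal lineage, in which epidermal cells divide asymmetrically to make guard cells, were higher at 7 of 8 tested members. Their summed level was 457 to 582 scaled reads in met1 young shoots and 143 to 170 in Col-0 mature leaves. SPCH, the transcription factor that starts the lineage, had 3.03, 0.838 and 0 in Col-0 and 46.98, 38.6 and 41.4 in met1 (log2 fold change 4.47 ± 0.52, adjusted p = 2.3e-05). EPFL9, the secreted peptide STOMAGEN that promotes stomata, had 0, 2.51 and 3.13 in Col-0 and 43.5, 41.5 and 58.8 in met1 (log2 fold change 4.31 ± 0.54, adjusted p = 3.7e-05), and EPF2, a peptide that restrains them, had 1.01, 0.838 and 2.35 in Col-0 and 29.8, 30.04 and 40.4 in met1 (log2 fold change 3.88 ± 0.43, adjusted p = 1.6e-05). POLAR, a polarity protein of dividing precursors, had 1 Col-0 read in all and 18.3, 21.5 and 43.2 scaled reads in met1, a ratio of 101 (95% interval 17.7 to 4057). The highest Col-0 value of these 4 genes was 3.13. Trichome genes were called higher at 3 of 4 tested members, and at 1 without met1 replicate 3. TRY, a small MYB protein that limits trichome number, had 6.07, 4.19 and 11.8 in Col-0 and 87.1, 62.9 and 56.98 in met1 (log2 fold change 3.15 ± 0.37, adjusted p = 2.1e-05).

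Shoot meristem genes were mostly not called. Their summed level was 628 to 791 scaled reads in met1 and 390 to 486 in Col-0, and the stem cell markers WUS and CLV3 were not listed or were at 0 in both groups. Of 5 tested members 1 was higher and none lower, with a median of -0.22, on the other side of 0 from the difference in summed level. Without Col-0 replicate 1 the calls were 1 higher and 2 lower with a median of -0.69, without met1 replicate 3 they were 1 and 1, and under total-read scaling 1 and 2. The higher member was ANT, an AP2-type factor of young organ primordia, with 24.3, 27.6 and 26.6 in Col-0 and 125, 157 and 239.9 in met1 (log2 fold change 2.64 ± 0.24, adjusted p = 2.8e-06). STM, the homeobox gene that maintains the meristem and chosen after its values were seen, had 22.3, 49.4 and 60.3 in Col-0 and 22.9, 12.9 and 15.6 in met1, and the groups overlapped. Markers of other organs were nearly absent. The summed level was at most 0.838 scaled reads for 10 root genes, at most 5.06 for 7 pollen genes and at most 14.2 for 14 seed genes, and 12 flower genes summed to 29.8 to 34.3 in met1 and 33.4 to 69.7 in Col-0, with UFO at 0 or not listed. Of the flower genes SEP1 was called lower at -1.31, a call lost under 7 alternatives.

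Wax and cutin genes, which build the cuticle of the epidermis, were higher at 17 of 27 tested members and lower at none, with a median of 1.65. DCR, an acyltransferase of cutin synthesis, had 22.3, 27.6 and 10.97 scaled reads in Col-0 and 315, 289 and 517 in met1 (log2 fold change 4.18 ± 0.31, adjusted p = 7.6e-07). LACS2, a long-chain acyl-CoA synthetase, had 53.6, 57.8 and 55.6 in Col-0 and 432, 551 and 482 in met1 (log2 fold change 3.10 ± 0.13, adjusted p = 2.1e-08), and CER1, which makes the alkanes of wax, had 17.2, 27.6 and 15.7 in Col-0 and 154, 147 and 180.1 in met1 (log2 fold change 2.97 ± 0.24, adjusted p = 1.1e-06). CYP86A4, a fatty acid hydroxylase, had 2.02, 4.19 and 0.784 in Col-0 and 30.9, 15.7 and 39.5 in met1 (log2 fold change 3.20 ± 0.52, adjusted p = 0.00028). The met1 libraries were above the Col-0 libraries at all 4 genes, since only members without overlap were named.

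Flavonoid genes, which make flavonols and the red anthocyanins, were called in both directions. Of 25 tested members 14 were higher and 3 lower, with a median of 1.37. MYB111, an activator of flavonol synthesis, had 4.05, 7.54 and 3.13 scaled reads in Col-0 and 245, 237 and 224 in met1 (log2 fold change 5.39 ± 0.29, adjusted p = 7.1e-08), and FLS1, the flavonol synthase, had 43.5, 80.4 and 71.3 in Col-0 and 856, 851 and 1115 in met1 (log2 fold change 3.87 ± 0.21, adjusted p = 7.1e-08). 4CL3, a coumarate ligase at the entry of the pathway, had 10.1, 19.3 and 16.5 in Col-0 and 241, 236 and 228 in met1 (log2 fold change 3.90 ± 0.23, adjusted p = 1.5e-07). PAP2 (MYB90, AT1G66390), an activator of anthocyanin synthesis, had 77.9, 175 and 243 in Col-0 and 0, 0 and 4.60 in met1 (log2 fold change -6.40 ± 0.65, adjusted p = 7.3e-06), and no read was counted in met1 replicates 1 and 2.

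**Figure D4:**
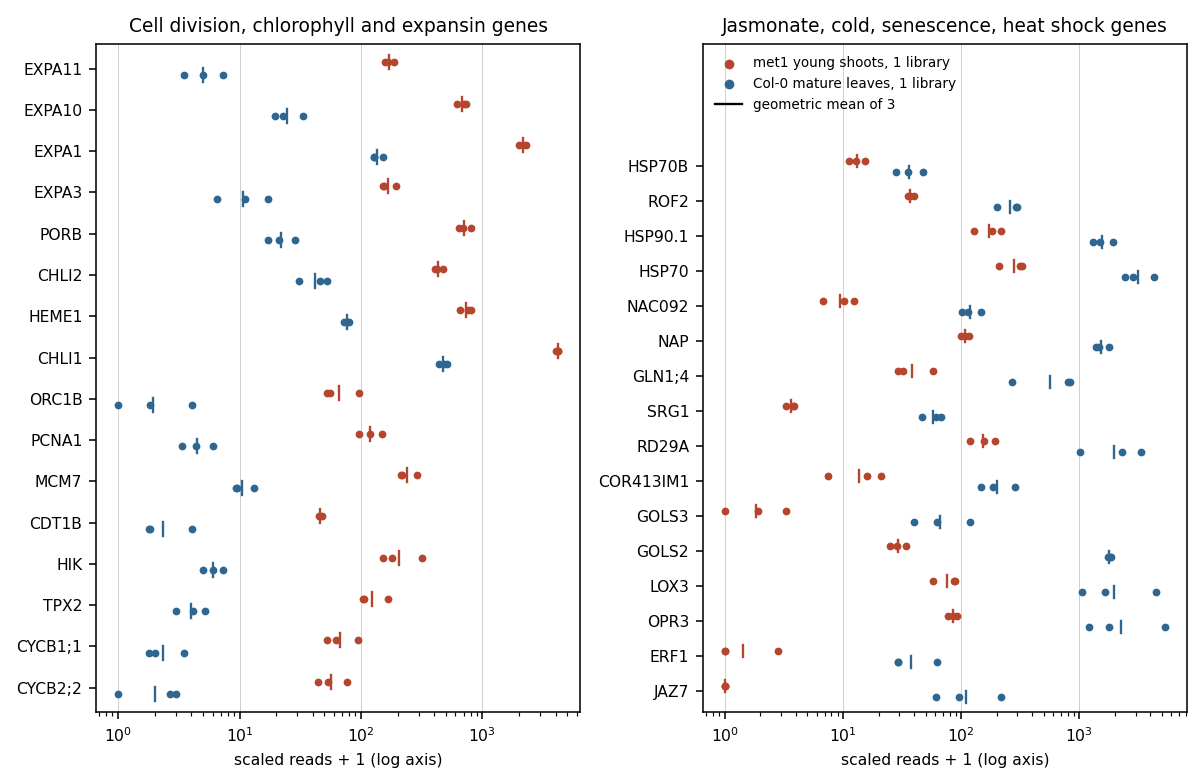
Scaled reads plus 1 (logarithmic axis) of named genes in the 6 libraries, 1 point a library, 1 colour a group and a line at the geometric mean, with genes of cell division, chlorophyll synthesis and expansins in one panel and genes of jasmonate, cold, senescence and heat shock in the other. Each list gave up to 4 DEGs with the largest changes, and a lack of overlap between the groups was a condition for showing them. In these picked genes met1 young shoots are above Col-0 in the first panel and below in the second. Members that were not called or went the other way are not shown. The Col-0 points of OPR3, LOX3 and JAZ7 are widely spread.

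Jasmonate genes had the lowest median of the 28 lists. Jasmonate is the lipid hormone of wounding and insect defence, and its genes include those that make the hormone (LOX and OPR3), the repressors that it destroys (JAZ) and the activator MYC2, all of which the hormone itself induces. Of 31 tested members 25 were lower and 1 was higher, with a median of -2.78, and the list took 0.119% to 0.129% of nuclear reads in met1 and 0.463% to 1.31% in Col-0. Col-0 replicate 1 held the highest share. Without it, 21 members were lower and 2 higher with a median of -2.39, and without met1 replicate 3 the counts were 21 and 1. OPR3, the reductase that makes the jasmonate precursor, had 5331, 1792 and 1206 scaled reads in Col-0 and 83.6, 91.5 and 77.2 in met1 (log2 fold change -4.73 ± 0.40, adjusted p = 1.7e-06). LOX3, a lipoxygenase at the start of the pathway, had 4429, 1662 and 1052 in Col-0 and 57.3, 87.3 and 86.4 in met1 (log2 fold change -4.69 ± 0.40, adjusted p = 1.8e-06). MYC2, picked once its values were known, had 5862, 2917 and 2174 in Col-0 and 488, 498 and 471 in met1 (log2 fold change -2.78 ± 0.27, adjusted p = 5.1e-06). For all of them the lowest Col-0 value was several times the highest met1 value, although the Col-0 replicates themselves differed widely.

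The repressor gene JAZ7 had 218, 95.5 and 60.3 scaled reads in Col-0 and no read in met1, which made it at least 104-fold lower against the floor of 3 reads over the group. JAZ8, chosen after its values were seen, had 41.5, 16.8 and 16.5 and no read in met1 (at least 21.02-fold lower). ERF1, a transcription factor of the jasmonate and ethylene branch, had 61.7, 28.5 and 28.2 and 2 met1 reads in all, a Col-0 to met1 ratio of 50.4 (95% interval 13.7 to 420.3). The receptor gene COI1, chosen after its values were seen, had 471, 443 and 490.5 in Col-0 and 361, 352 and 378 in met1. Its log2 fold change was -0.36, below the threshold, and it was 1 of 5 tested members that were not called. The higher member was the defensin PDF1.3 (9.10, 0.838 and 1.57 in Col-0 and 50.4, 38.6 and 56.98 in met1, log2 fold change 3.76), also chosen after its values were seen. In the windows upstream of jasmonate genes a G-box (CACGTG), the motif that MYC2 binds, was found at 7 of 33 members (21.2%), against 7.49% of all tested genes. The windows of JAZ7 (chr2:14572780-14573029, plus strand) and JAZ8 (chr1:10596102-10596351, plus strand) show it in capitals close to the annotated start.
JAZ7: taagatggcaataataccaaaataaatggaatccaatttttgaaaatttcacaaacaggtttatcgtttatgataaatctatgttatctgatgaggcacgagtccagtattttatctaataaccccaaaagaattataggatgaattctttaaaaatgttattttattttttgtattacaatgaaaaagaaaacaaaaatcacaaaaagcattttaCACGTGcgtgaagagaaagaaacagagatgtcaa
JAZ8: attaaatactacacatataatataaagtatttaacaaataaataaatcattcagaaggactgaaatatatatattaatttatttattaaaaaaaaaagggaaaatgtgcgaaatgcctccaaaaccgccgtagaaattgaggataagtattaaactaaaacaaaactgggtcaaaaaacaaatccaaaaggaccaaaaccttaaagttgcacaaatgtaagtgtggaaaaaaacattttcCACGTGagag
The motif began 34 bases before the start of JAZ7 and 10 bases before that of JAZ8.

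Glucosinolates are the sulfur-rich defence compounds of the cabbage family, and jasmonate is known to induce their synthesis. Aliphatic glucosinolate genes, which start from methionine, were lower at 17 of 27 tested members and higher at 1, with a median of -1.33, and the counts were 14 and 1 without Col-0 replicate 1. BCAT4, the aminotransferase that opens methionine chain elongation, had 2790.1, 1739.6 and 1572 scaled reads in Col-0 and 337, 320.4 and 350.2 in met1 (log2 fold change -2.55 ± 0.18, adjusted p = 4.5e-07). CYP79F1, which makes the aldoxime intermediate, had 3372, 2086 and 2112 in Col-0 and 644, 645 and 549 in met1 (log2 fold change -2.01 ± 0.17, adjusted p = 1.7e-06). GGP1, a peptidase of the core pathway, had 3687, 2225 and 1775 in Col-0 and 557, 594 and 559.7 in met1 (log2 fold change -2.10 ± 0.21, adjusted p = 5.9e-06), and the glutathione transferase GSTF11 had 187, 102 and 79.9 in Col-0 and 26.4, 24.3 and 27.6 in met1 (log2 fold change -2.10 ± 0.28, adjusted p = 6.5e-05). Col-0 replicate 1 was again the highest library at each of them. IMD3, an isopropylmalate dehydrogenase chosen after its values were seen, was the higher member at 1.03, a call lost under 4 alternatives.

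Indolic glucosinolate genes, which start from tryptophan, were lower at 8 of 18 tested members and higher at 1, with a median of -0.74, and 5 were lower without met1 replicate 3. CYP83B1, of the core pathway, had 3201, 2204 and 1750.4 in Col-0 and 654, 601 and 565 in met1 (log2 fold change -1.93 ± 0.18, adjusted p = 3.7e-06). CYP81F2, which hydroxylates the indole ring, had 93.1, 98.00 and 118 in Col-0 and 13.7, 10.01 and 17.5 in met1 (log2 fold change -2.84 ± 0.26, adjusted p = 2.9e-06), and IGMT1, which methylates the product, had 108, 119 and 131 in Col-0 and 4.58, 15.7 and 4.60 in met1 (log2 fold change -3.90 ± 0.39, adjusted p = 7.2e-06). TGG1, the myrosinase that breaks glucosinolates down and is stored in guard cells and phloem idioblasts, was the higher one. It had 1734, 1054 and 829.8 scaled reads in Col-0 and 8240.2, 8488 and 9072 in met1 (log2 fold change 2.90 ± 0.21, adjusted p = 6.2e-07).

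Genes of salicylic acid, the hormone of defence against biotrophic pathogens, went in both directions, with 10 of 36 tested higher, 6 lower and a median of 0.11 that turned to -0.22 under total-read scaling. PR1, the usual marker of this response, had 35.4, 45.2 and 32.1 scaled reads in Col-0 and 603, 585 and 527 in met1 (log2 fold change 3.90 ± 0.15, adjusted p = 1.4e-08). PCC1, which pathogens also induce, had 26.3, 39.4 and 27.4 in Col-0 and 518, 585 and 238 in met1 (log2 fold change 3.73 ± 0.30, adjusted p = 1.1e-06), and AIG1, induced by a bacterial effector, had 23.3, 17.6 and 10.97 in Col-0 and 148, 160.2 and 175 in met1 (log2 fold change 3.20 ± 0.26, adjusted p = 1.3e-06). The groups did not overlap at any of them, which the rule for naming them required. WRKY18, a transcription factor of early defence, was lower with 1983, 1009 and 622 in Col-0 and 155, 144 and 132 in met1 (log2 fold change -2.90 ± 0.31, adjusted p = 1e-05), and Col-0 replicate 1 was its highest library. PR2 (0.67) and the immune regulator EDS1 (0.05), both chosen after their values were seen, were not called.

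Senescence genes were lower at 17 of 28 tested members and higher at 1, with a median of -1.24. Without met1 replicate 3 the counts were 13 lower and 1 higher, and without Col-0 replicate 1 they were 15 and 2. They took 0.0854% to 0.0895% of nuclear reads in met1 and 0.247% to 0.280% in Col-0. NAP and NAC092 (ORE1) encode NAC transcription factors that promote leaf senescence. NAP had 1379, 1482 and 1780.2 scaled reads in Col-0 and 108, 116 and 99.3 in met1 (log2 fold change -3.83 ± 0.12, adjusted p = 3.7e-09), and NAC092 had 100.2, 114 and 147 in Col-0 and 11.5, 5.72 and 9.19 in met1 (log2 fold change -3.66 ± 0.29, adjusted p = 1.1e-06). GLN1;4, a cytosolic glutamine synthetase that handles nitrogen leaving old leaves, had 268, 798 and 826 in Col-0 and 57.3, 31.5 and 28.5 in met1 (log2 fold change -3.88 ± 0.39, adjusted p = 6.4e-06), and Col-0 replicate 1 was its lowest Col-0 library. SRG1, a senescence-related oxygenase, had 60.7, 67.01 and 45.4 in Col-0 and 2.29, 2.86 and 2.76 in met1 (log2 fold change -3.998 ± 0.34, adjusted p = 1.8e-06). The groups did not overlap at these 4 genes, which was a condition for naming them. SAG21, a late-embryogenesis protein chosen after its values were seen, was the higher member at 1.06, a call lost under total-read scaling and without Col-0 replicate 2 or 3.

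Sugar starvation and starch genes were lower at 10 of 39 tested members and higher at 6, with a median of -0.34. BCAT2, which degrades branched-chain amino acids, had 105, 156 and 207 scaled reads in Col-0 and 5.73, 18.6 and 12.9 in met1 (log2 fold change -3.63 ± 0.38, adjusted p = 9e-06). STP13, a hexose transporter, had 363, 357 and 317 in Col-0 and 74.5, 52.9 and 49.6 in met1 (log2 fold change -2.55 ± 0.17, adjusted p = 2.8e-07), and SEN1, a gene of dark-treated and starved leaves, had 211, 190.1 and 253 in Col-0 and 53.8, 30.04 and 14.7 in met1 (log2 fold change -2.86 ± 0.36, adjusted p = 3.5e-05). APL3, a subunit of the enzyme that starts starch synthesis, had 412, 633 and 481 in Col-0 and 92.8, 92.98 and 81.8 in met1 (log2 fold change -2.48 ± 0.16, adjusted p = 2.3e-07). All 4 were lower in each met1 library, and a lack of overlap was a condition for naming them.

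Nitrogen genes were mixed, with 9 of 24 tested higher, 6 lower and a median of 0.47. ASN2, an asparagine synthetase, had 57.7, 64.5 and 34.5 scaled reads in Col-0 and 1078, 1086 and 1183 in met1 (log2 fold change 4.44 ± 0.20, adjusted p = 2.4e-08), and LBD38, a nitrate-induced repressor of nitrogen and anthocyanin genes, had 36.4, 25.96 and 15.7 in Col-0 and 251, 260.3 and 244 in met1 (log2 fold change 3.30 ± 0.26, adjusted p = 9.3e-07). The high-affinity nitrate transporter NRT2.5, a gene of nitrogen-starved plants, was lower with 57.7, 122 and 117 in Col-0 and 9.17, 4.29 and 3.68 in met1 (log2 fold change -3.91 ± 0.39, adjusted p = 6.5e-06). NRT1.8, which unloads nitrate from the xylem, had 146, 61.98 and 59.5 in Col-0 and 4.58, 18.6 and 5.51 in met1 (log2 fold change -3.21 ± 0.49, adjusted p = 0.00017). Phosphate starvation genes were lower at 5 of 19 tested members and higher at 1. AT4 (AT5G03545), a transcript induced by phosphate starvation, had 16.2, 20.9 and 43.1 in Col-0 and 3 met1 reads in all, a Col-0 to met1 ratio of 24.6 (95% interval 8.17 to 121). PHO2, the ubiquitin-conjugating enzyme that limits phosphate uptake, had 2337, 2596 and 2824 in Col-0 and 965, 839.7 and 861 in met1 (log2 fold change -1.54 ± 0.11, adjusted p = 4.5e-07), and PLDP2, a phospholipase that frees phosphate from membranes, had 64.7, 71.2 and 80.7 in Col-0 and 10.3, 11.4 and 14.7 in met1 (log2 fold change -2.48 ± 0.25, adjusted p = 7.8e-06). PPsPase1, a phosphatase of starved plants, was called at -2.43 but not under 3 of the leave-one-out fits.

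Iron genes divided evenly, with 7 of 23 tested higher and 7 lower. FER1, the ferritin that stores iron in plastids, had 2964, 3473 and 4099 scaled reads in Col-0 and 529, 475 and 594 in met1 (log2 fold change -2.71 ± 0.13, adjusted p = 4e-08). FRO2, a ferric reductase, had 57.7, 64.5 and 53.3 in Col-0 and 14.9, 20.03 and 10.1 in met1 (log2 fold change -1.94 ± 0.29, adjusted p = 0.00014). NAS4, which makes the iron chelator nicotianamine, was higher with 26.3, 18.4 and 15.7 in Col-0 and 92.8, 100.1 and 123 in met1 (log2 fold change 2.35 ± 0.24, adjusted p = 8.4e-06), as was VTL5, of a vacuolar iron transporter family, with 2.02, 4.19 and 4.70 in Col-0 and 26.4, 22.9 and 32.2 in met1 (log2 fold change 2.64 ± 0.41, adjusted p = 0.00017).

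Cold and dehydration genes were lower at 18 of 26 tested members and higher at 1, with a median of -2.16, and 15 were lower and 1 higher without Col-0 replicate 1. They took 0.348% to 0.365% of nuclear reads in met1 and 0.659% to 1.17% in Col-0, where replicate 1 was highest. GOLS2, which makes galactinol, the building block of protective raffinose sugars, had 1804, 1858 and 1732 scaled reads in Col-0 and 24.1, 32.9 and 27.6 in met1 (log2 fold change -5.96 ± 0.13, adjusted p = 4.5e-10). Its 3 Col-0 values were close to one another, so that it did not share the excess of replicate 1. RD29A, a classic target of the cold regulators CBF and DREB2, had 3331, 2282 and 1013 in Col-0 and 155, 119 and 192 in met1 (log2 fold change -3.69 ± 0.34, adjusted p = 3.3e-06), and COR413IM1, a protein of the inner chloroplast envelope, had 287, 186 and 147 in Col-0 and 14.9, 20.03 and 6.43 in met1 (log2 fold change -3.88 ± 0.37, adjusted p = 4.3e-06). GOLS3 had 117, 61.98 and 39.2 and 3 met1 reads in all, a Col-0 to met1 ratio of 61.5 (95% interval 20.8 to 300.4). The higher member, the proline synthesis gene P5CS1, was at 1.001 and lost its call under 10 alternatives, and RD22 was at 0.19, both chosen after their values were seen.

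The drought response element (ACCGAC), to which CBF and DREB2 bind, was found upstream of 6 of 32 cold and dehydration genes (18.8%), against 5.35% of all tested genes. The windows of GOLS2 (chr1:21207287-21207536, plus strand) and RD29A (chr5:21240467-21240716, plus strand) are shown with it in capitals. RD29A holds 3 matches, and GOLS2 holds 1 on the opposite strand.
GOLS2: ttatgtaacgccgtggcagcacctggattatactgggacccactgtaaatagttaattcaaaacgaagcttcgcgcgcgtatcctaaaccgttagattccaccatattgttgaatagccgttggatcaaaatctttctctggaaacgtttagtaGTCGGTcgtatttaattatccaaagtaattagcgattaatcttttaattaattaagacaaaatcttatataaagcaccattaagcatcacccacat
RD29A: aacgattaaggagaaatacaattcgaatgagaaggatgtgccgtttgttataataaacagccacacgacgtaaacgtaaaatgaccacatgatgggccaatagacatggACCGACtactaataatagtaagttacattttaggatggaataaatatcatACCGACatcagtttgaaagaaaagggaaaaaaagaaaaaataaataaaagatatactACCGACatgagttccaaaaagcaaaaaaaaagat
The G-box was found at 8 of the same 32 genes. Of the 19 cold and dehydration genes that were called, 4 held the drought response element, and the other called genes held none within these 250 bases.

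Heat shock genes were lower at 6 of 17 tested members and higher at none, with a median of -0.41. HSP70 had 4319.7, 2841 and 2452 scaled reads in Col-0 and 328, 316 and 209 in met1 (log2 fold change -3.48 ± 0.21, adjusted p = 1.7e-07), and the chaperone HSP90.1 had 1913, 1484 and 1305 in Col-0 and 218, 183 and 129 in met1 (log2 fold change -3.16 ± 0.19, adjusted p = 1.5e-07). ROF2, a co-chaperone of HSP90, had 293, 289.8 and 201 in Col-0 and 34.4, 38.6 and 35.8 in met1 (log2 fold change -2.80 ± 0.18, adjusted p = 2.4e-07). HSP70B was at -1.47, a call lost without Col-0 replicate 3. The heat shock factor HSFA2, chosen after its values were seen, was at -0.22 and was not called.

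Clock genes, whose levels cycle over the day, were compared without knowledge of the harvest time. Of 30 tested members 6 were higher and 2 lower, with a median of -0.01. Under total-read scaling 3 were higher, and without Col-0 replicate 1 or met1 replicate 3 a single member was lower. The morning genes CCA1 and LHY, which repress the evening genes, were not called, and they and TOC1 were chosen after their values were seen. CCA1 had 2553, 2728 and 2671 scaled reads in Col-0 and 3278, 3144 and 3113 in met1, and LHY had 3846, 4204 and 4027 in Col-0 and 5808, 5742 and 5285 in met1, with log2 fold changes of 0.26 and 0.48, the first of which turned to -0.06 under total-read scaling. Both were abundant in all 6 libraries, while the evening gene TOC1, at 121, 119.8 and 83.8 in Col-0 and 102, 124 and 131 in met1, was low in both groups. PRR7, which represses CCA1 later in the day, was lower with 466, 571 and 605 in Col-0 and 219.98, 179 and 137 in met1 (log2 fold change -1.63 ± 0.17, adjusted p = 8.4e-06). RVE1 and RVE2, relatives of CCA1, were higher, RVE1 with 265, 229 and 259 in Col-0 and 838, 855 and 708 in met1 (log2 fold change 1.66 ± 0.11, adjusted p = 3.8e-07) and RVE2 with 34.4, 25.1 and 28.99 in Col-0 and 152, 159 and 213 in met1 (log2 fold change 2.52 ± 0.20, adjusted p = 1.1e-06). PRR3 was called lower at -1.83, and this call was lost under 8 alternatives.

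Flowering time genes showed 5 of 35 tested members higher and 8 lower, with a median of -0.18. SMZ, an AP2-type repressor of flowering in young plants, had 9.10, 3.35 and 6.27 scaled reads in Col-0 and 102, 110.1 and 87.3 in met1 (log2 fold change 3.88 ± 0.33, adjusted p = 2e-06). FUL, a MADS-box gene that rises as plants flower, had 87.00, 90.5 and 98.7 in Col-0 and 5.73, 2.86 and 4.60 in met1 (log2 fold change -4.14 ± 0.31, adjusted p = 6.7e-07). TSF, the sister of the florigen gene FT, had 10.1, 31.8 and 29.8 and 1 met1 read in all, a Col-0 to met1 ratio of 66.1 (95% interval 11.6 to 2642). SPL15, which promotes flowering at the meristem, had 1 Col-0 read in all and 12.6, 21.5 and 11.03 scaled reads in met1, a ratio of 49.4 (95% interval 8.35 to 2002). FT (0.53) and SOC1 (-0.76), chosen after their values were seen, were not called.

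**Figure D5:**
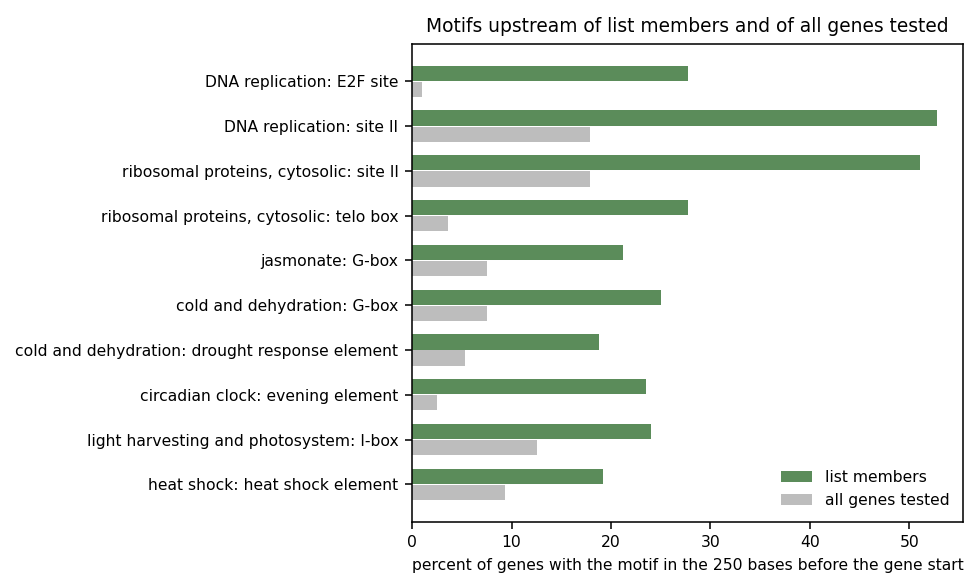
Percent of 250-base upstream windows that hold a motif on either strand, for 10 pairs of a gene list and a motif, with the percent over all tested genes beside each. The E2F site of DNA replication genes (27.8% against 0.993%) and the evening element of clock genes (23.5% against 2.46%) stand highest relative to their background.

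Across the other lists, the evening element (AAAATATCT) was found upstream of 23.5% of clock genes against 2.46% of all tested genes, and the G-box upstream of 29.4% against 7.49%. An I-box (GATAAG), known from light-regulated genes, lay before 24.0% of light harvesting genes against 12.6%, and a heat shock element (GAANNTTC) before 19.2% of heat shock genes against 9.35%. Other lists held both more often: the I-box lay before 30.8% of heat shock and 30.3% of jasmonate genes, and the heat shock element before 27.3% of phosphate starvation and 23.3% of DNA methylation genes. The site II element was likewise found before 52.8% of DNA replication genes, and the G-box before 23.3% of iron genes. The W-box (TTGACC or TTGACT), which WRKY factors bind, was found at 32.3% of the lower and 23.2% of the higher DEGs, around the 28.0% of all tested genes. Motifs can overlap one another where their letters allow, each was searched on both strands, and the windows came from the TAIR10.1 annotation, so they are the same whether or not a gene changed.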

How the data were processed

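RNA-seq libraries of met1-3 young shoots and Col-0 mature leaves were compared, 3 a group. Per the labels, reads were trimmed with Trimmomatic, aligned to TAIR10 with HISAT2 and scaled with DESeq2, whereas the methods of the study name Fastp for trimming and HTSeq-count for counting. Tool versions, annotation and strand setting are not given in the sources used here. The values deposited by the authors were log2 of reads divided by a size factor plus 1, scaled separately in each table. Undoing the log2 and the size factor gave whole reads for 100% of the values (largest deviation 8.2e-08), with 10105057 to 13336989 reads a library.

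The 6 libraries were rescaled together by the median of ratios over nuclear IDs without a suffix listed in both tables. Genes with at least 10 scaled reads in at least 3 of 6 libraries and 15 reads in total were tested with limma 3.58.1 (R 4.3.3; lmFit and eBayes with trend) on log2(scaled reads + 1), with no covariate. A fold change is on this log2(value + 1) scale, which understates the change of low genes. P-values were adjusted by the Benjamini-Hochberg method over all genes tested, and DEGs had an adjusted p below 0.01 and an absolute log2 fold change above 1. The main test was run on the log2 scale because that is the deposited unit, although whole reads were recovered. No other count model was run, but limma voom on the recovered reads, one of the alternatives, gave 2962 higher and 2315 lower genes. On simulated counts for 17009 genes, 197 of 200 genes changed by a log2 fold change of 2 were recovered and 0 others were called. The simulation changed far fewer genes than the 5349 DEGs of the data, in equal numbers up and down, and used a preset spread. It therefore checks that the code runs as meant and cannot give the rate of false calls in these data. Where a group had no read, a bound was set with 3 reads over the group, and with 1 to 3 reads the ratio is given with a 95% exact interval, which covers counting error only. Reads without molecular identifiers are not independent molecules.

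Genes were named by rule: all DNA methylation genes, up to 4 non-overlapping DEGs with the largest absolute log2 fold change in each of 28 lists, DEGs among the cell type markers, the 8 highest and 8 lowest over the table, and the 5 met1-only genes with the most reads in their lowest library. Other genes were chosen after their values were seen, as stated beside them. The comparison, its members and the lists were chosen with earlier results of these data known. Symbols were matched to the TAIR10.1 annotation of RefSeq, 37 of them without a match, and upstream windows were read from that reference. Members of the ribosomal protein and histone lists were picked mainly by the wording of annotated products instead. Alternatives were TMM scaling, total reads, size factors over all IDs, pseudocounts of 0.1 and 5, no filter, 10 reads in every library, voom, a replicate block, leaving out each library, thinned reads, genes of either table and another threshold. Libraries labelled met1 mature leaves or ddcc were not used.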

Additional observations from a re-analysis of the deposited data

Results flagged for a closer look

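TE genes, which the comparison of non-TE genes did not use, held a signal in met1 young shoots that stood above Col-0. Their share of reads was 1.15% in the lowest met1 library, whereas no Col-0 library exceeded 0.0729%.

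Genes listed for met1 young shoots alone could not enter the test, and 5 of them had many reads in every met1 library. The lowest library held 239 reads of AT5G45570 and 176 of AT5G28810, both annotated in the Ulp1 protease family. For the MADS-box gene AT5G35120 it held 177 reads, for AT1G20400, which carries a domain of unknown function, 128, and for the uncharacterized AT4G08593, 102. Against a floor of 3 reads over the Col-0 group, these genes would be at least 335-fold, 259-fold, 265-fold, 232-fold and 187-fold higher in that order, although a gene that is not listed need not have had 0 reads.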

How the results depend on the processing

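No DEG was called in the opposite direction under any of the 18 alternatives. The count of higher genes ran from 2123 under total-read scaling to 3152 without a filter, and that of lower genes from 1733 with 10 reads required in every library to 3802 under total-read scaling. At an adjusted p below 0.05 with no fold change threshold, 5249 were higher and 5099 lower. Leaving out each library in turn gave 2734 to 3031 higher and 2157 to 2336 lower genes, with 2734 and 2245 without met1 replicate 3, and differences in read share of -1.56 to -0.54 percentage points for plastid, -0.03 to 0.16 for mitochondrial and 1.085 to 1.098 for TE genes.

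Same-numbered libraries did not deviate together (r = -0.0273 to 0.00391, other pairs -0.0231 to 0.0283), 1 of the 6 libraries (Col-0 replicate 2) correlated best with its own number, and the numbers do not pair them. A fit with the replicate block gave 2938 higher and 2389 lower genes.

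Some genes that were not called changed sign. Under total-read scaling the log2 fold change became -0.16 at DME, -0.15 at DML3, -0.24 at SUVH4, -0.0816 at IDM1, -0.25 at MOM1, -0.13 at MORC1, -0.0372 at DCL3, -0.0615 at CCA1, -0.17 at TOC1, -0.28 at EDS1 and -0.14 at RD22. With one library left out it ran from -0.10 to 0.41 at DML3, -0.0858 to 0.277 at SUVH4, -0.0157 to 0.171 at MOM1, -0.0133 to 0.283 at MORC1, -0.0336 to 0.265 at TOC1, -0.14 to 0.15 at EDS1, -0.21 to 0.11 at TES, -0.41 to 0.0255 at HSFA2 and -0.55 to 0.0089 at HEMA2. The cause was not tested. Of 183 named genes, 16 lost and 14 gained a call under at least one alternative. At an adjusted p below 0.05 with no fold change threshold, 13 gained one. The fit that required 10 reads in every library covered 109 of the named genes, and a gene absent from a fit was not counted as lost. Genes with few reads in one group rest on that depth.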
